A study of Mus musculus with 75 samples.

Results

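Oxidative phosphorylation is the process by which mitochondria make ATP from electrons taken from food. The genes described here are the 103 protein-coding genes whose symbol starts with mt-, Nduf, Uqcr or Atp5, or with Cox followed by a digit from 4 to 8, of 55536 genes in the table, 22028 of them protein-coding. The 13 mt- genes lie on mitochondrial DNA and 90 lie on nuclear chromosomes. By role the nuclear genes fall into 7 core and 31 accessory subunits of complex I, 8 assembly factors of complex I, 8 subunits of complex III, 18 of complex IV and 18 of ATP synthase. They were measured by total RNA sequencing in 75 libraries of C57Bl/6 mouse liver, all labelled male. Their mothers received vehicle or the organotin tributyltin (TBT) in drinking water up to weaning; the TBT water was 3.07 µM, for a daily dose of 0.5 mg/kg.

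At 3 weeks of age there were 8 vehicle libraries and 8 TBT libraries. The 5-month set had 8 libraries of vehicle livers and, from TBT-exposed mice, 16 labelled low risk and 10 labelled high risk, a label whose basis at that age is not given in the sources used here. At 10 months there were 6 vehicle libraries, 5 low-risk TBT livers, 6 libraries of uninvolved liver from high-risk TBT mice and 7 tumors of TBT-exposed mice. One further 10-month vehicle library is labelled as a tumor and entered no comparison. Of the 5-month libraries, 1 vehicle, 10 low-risk and 7 high-risk ones carry batch label 2, and every other library carries batch label 1. The libraries 3S1 and 3S16 of 3-week vehicle mouse 3 were summed, which left 7 samples. Uninvolved libraries 3 and 6 were also summed, which left 5, because their mean chi-square per gene was 3.481 where the next closest pair had 13.518. Same-numbered uninvolved livers and tumors are not stated to come from the same mouse beyond the sample titles.

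As background, complexes I, III and IV pass electrons from NADH to oxygen and pump protons across the inner mitochondrial membrane, and ATP synthase uses the returning protons to make ATP. Each of the 4 complexes is built from subunits of both genomes. Mitochondrial DNA is transcribed from both strands into long RNAs that are cut into single messages, while the nuclear subunits are transcribed gene by gene, in part under NRF1, GABPA (an ETS factor), YY1 and ERR factors. Hepatocytes are rich in mitochondria and use this ATP for gluconeogenesis and urea synthesis.

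Several mitochondrial genes have near-identical copies in the nuclear genome, which bears on the values of those genes. In the gene annotation of the mouse build GRCm38 (GENCODE M21), a row of unprocessed pseudogenes on chromosome 1 between positions 24611535 and 24616197 copies a stretch of mitochondrial DNA. Gm28661 matched mt-Co2 over 681 bases with 0 differences, Gm28437 matched mt-Co3 over 783 with 0, and Gm10925 matched mt-Atp6 over 678 with 0. Gm28439 matched mt-Nd4 over 876 bases and Gm10222 matched mt-Nd4l over 294, both with 0 differences. Gm28438 differed from mt-Nd3 at 1 base of 345, and Gm29216 differed from the end of mt-Co1 at 6 bases of 492. The differing bases all lie in the stretches below, which show how little separates the copies from their source (5′ to 3′ on the coding strand, from the annotation's transcripts, with the differing bases in capitals). mt-Nd3 is shown from chrM:9459-9518 and Gm28438 from chr1:24613060-24613119. mt-Co1 is shown from chrM:6381-6440 and Gm29216 from chr1:24616138-24616197.
mt-Nd3: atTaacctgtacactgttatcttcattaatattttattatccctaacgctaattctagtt
Gm28438: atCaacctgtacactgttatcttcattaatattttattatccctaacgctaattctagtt
mt-Co1: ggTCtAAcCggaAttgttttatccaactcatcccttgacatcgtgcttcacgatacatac
Gm29216: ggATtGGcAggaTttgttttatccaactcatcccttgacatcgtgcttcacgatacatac

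Of all windows of 50 bases in mt-Co2, 100% occur in another annotated transcript. The share was 99.9% for mt-Co3, 99.5% for mt-Atp6, 98.8% for mt-Nd4l and 98.0% for mt-Nd3. It was 62.2% for mt-Nd4, 51.1% for mt-Co1, 8.19% for mt-Nd2 and 7.61% for mt-Nd5. mt-Nd1, mt-Nd6, mt-Cytb and mt-Atp8 shared 0. Some shared windows lie in unprocessed pseudogenes of chromosome 2, which were not compared base by base. There Gm13340 shares 411 windows with mt-Co1, Gm13341 shares 224 with mt-Co2 and Gm13339 shares 81 with mt-Nd2. The counting rule for reads that match more than 1 place is not given in the sources used here, so the counts of the 5 genes with nearly complete copies are uncertain. Only annotated transcripts were searched. On mitochondrial DNA mt-Atp8 starts between mt-Co2 and mt-Atp6. Chromosome 1 between their copies, from Gm10925 (end 24614651) to Gm28661 (start 24614885), was not compared, so a copy of mt-Atp8 there would have been missed. mt-Atp8 overlaps mt-Atp6 and mt-Nd4l overlaps mt-Nd4 on the same strand, and mt-Nd6 overlaps mt-Nd5 on the opposite strand, so these pairs may also share or lose reads.

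For the nuclear genes, the stretch from 250 bases before to 50 bases after the start site was searched on both strands for 1 exact word per factor. RefSeq promoters of the build GRCm38.p6 matched 71 of the 90 nuclear genes. The NRF1 word GCATGCGC occurred in 11 of them (15.49%) against 3.05% of the promoters of 27025 genes, and the YY1 word AAGATGGCG in 8 (11.27%) against 1.64%. The ETS word ACTTCCGG occurred in 5 (7.04%) against 4.31%, and the ERR word TCAAGGTCA in 1 (1.41%) against 0.47%. At least 1 of the words occurred in 24 promoters (33.8%) against 8.93%. A match is a run of letters and not a measured binding site. The promoters below belong to genes that were lower in uninvolved liver at 10 months (their values follow). For each word, the holder with the smallest p in uninvolved against low-risk livers was picked. Their being lower therefore does not bear on the words. Atp5g3, the holder of the ERR word, is not printed. The Atp5l promoter (chr9:44920693-44920992, minus strand) holds the NRF1 word 240 bases before the start site. The Ndufs3 promoter (chr2:90904672-90904971, minus strand) holds the ETS word at the first base after it, and the Ndufs4 promoter (chr13:114388045-114388344, minus strand) holds the YY1 word 36 bases in. The words are in capitals.
Atp5l: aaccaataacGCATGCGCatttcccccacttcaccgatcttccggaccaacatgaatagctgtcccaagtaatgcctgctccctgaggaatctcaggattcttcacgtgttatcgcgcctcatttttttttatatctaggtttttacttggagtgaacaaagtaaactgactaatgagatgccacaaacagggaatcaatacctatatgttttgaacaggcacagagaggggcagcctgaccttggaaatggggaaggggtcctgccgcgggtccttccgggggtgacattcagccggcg
Ndufs3: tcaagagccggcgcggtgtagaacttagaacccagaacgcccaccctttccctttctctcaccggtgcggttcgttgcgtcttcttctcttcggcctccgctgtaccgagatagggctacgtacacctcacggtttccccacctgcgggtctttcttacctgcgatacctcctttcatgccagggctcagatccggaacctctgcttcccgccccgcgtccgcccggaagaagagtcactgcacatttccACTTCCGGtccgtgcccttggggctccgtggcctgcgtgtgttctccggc
Ndufs4: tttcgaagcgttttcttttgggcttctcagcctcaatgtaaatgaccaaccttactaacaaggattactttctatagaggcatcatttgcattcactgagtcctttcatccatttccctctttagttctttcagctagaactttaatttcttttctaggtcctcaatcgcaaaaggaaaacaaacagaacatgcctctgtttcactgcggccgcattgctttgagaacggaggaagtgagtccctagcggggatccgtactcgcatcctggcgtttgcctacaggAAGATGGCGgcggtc

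Total counts per library ran from 2.83 to 45.45 M (median 18.07 M). Levels are given as CPM, the count per 1 M counts of the library's total. At 10 months hepatocyte markers, summed over the 7 of 8 that entered the fits, ran from 86051 to 125900 CPM over vehicle, low-risk, uninvolved and tumor samples. Of 6 skeletal muscle markers only 1 entered the fits. That marker had group medians of at most 0.757 CPM. Its highest values were 11.1 CPM in 5-month high-risk livers, 9.20 in 3-week TBT livers, 8.49 in 3-week vehicles and 5.91 in tumors. Libraries 3S1 (3 weeks, vehicle), vehicle 9, low-risk 16 and high-risk 15 (5 months) and the vehicle library labelled as a tumor stood apart: they were low in ribosomal protein genes (under 0.8% of counts). High-risk library 10 stood apart in the other direction, with 0.593% of counts from the mitochondrial genes and 39669 genes detected. At 10 months the uninvolved libraries were the deepest (34.76 to 44.59 M counts) and had the most genes detected (24676 to 28715 against at most 23868 in the other 10-month libraries).

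The choice of scaling decides the direction of several results. The main fits use the trimmed mean of M-values (TMM), which centres the typical gene at no change. TMM factors were higher in high-risk livers (median 1.19) than in low-risk livers (0.950) at 5 months, and higher in uninvolved livers (1.16) than in low-risk livers (0.979) at 10 months. With total counts as the only scaling, the median log2 fold change over all genes tested shifted by 0.31 for high-risk against low-risk, by 0.37 for high-risk against vehicle, by 0.25 for uninvolved against low-risk, by 0.32 for uninvolved against vehicle and by 0.30 for tumor against vehicle. It shifted by -0.17 for vehicles of 5 months against 3 weeks and by 0.02 for tumor against uninvolved. The share of lower genes among all called genes moved from 47.7% to 13.9% for high-risk against low-risk, from 46.6% to 6.5% for high-risk against vehicle, from 47.2% to 21.2% for uninvolved against low-risk and from 46% to 17.4% for uninvolved against vehicle. For tumor against vehicle it moved from 45.8% to 10.5%, for vehicles of 5 months against 3 weeks from 50.9% to 77.6% and for vehicles of 10 against 5 months from 52.6% to 37.8%. CPM values below are on the total count scale, whereas log2 fold changes and their standard errors are TMM-scaled unless said otherwise. Adjusted p-values are from edgeR's quasi-likelihood test with Benjamini-Hochberg adjustment over all genes tested, with a threshold of 0.05. In each comparison 83 of the 90 nuclear genes and 13 of 13 mitochondrial genes passed the filter on low counts.

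**Figure D1:**
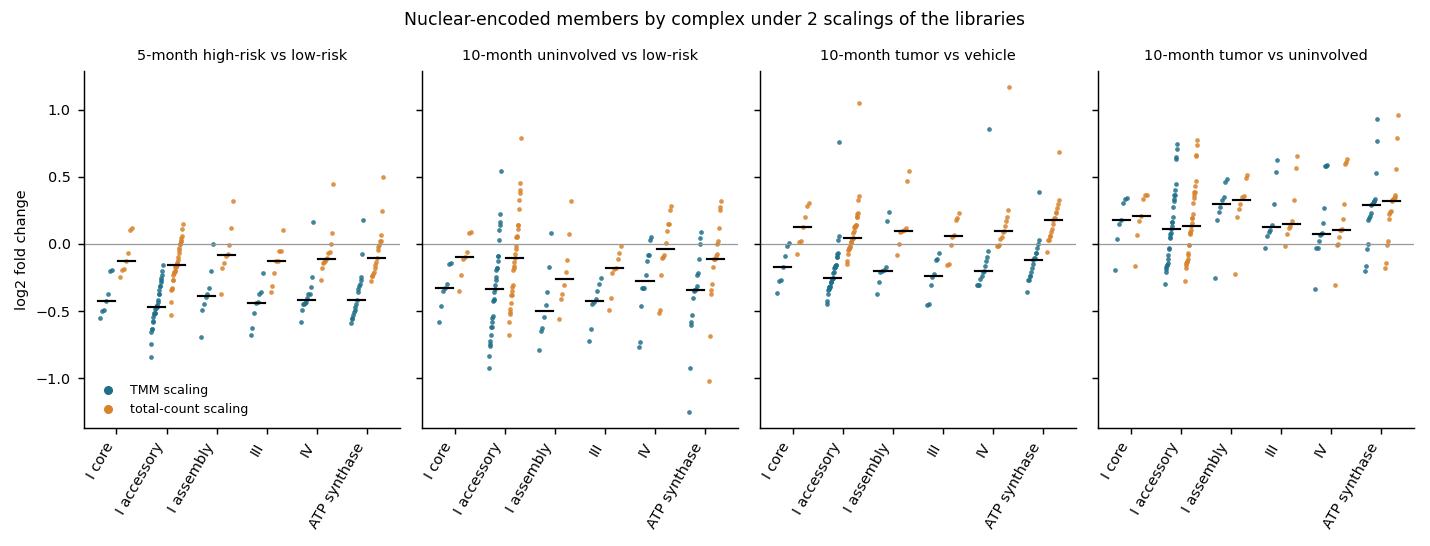
Log2 fold changes of the nuclear genes by complex in 4 comparisons, under TMM scaling and with total counts as the only scaling; each point is 1 gene and bars are class medians. The nuclear genes of high-risk livers lay mostly below 0 under TMM (median -0.43) and closer to 0 under total counts (-0.13), and those of tumor against vehicle changed sign (median -0.20 and 0.10). Medians over all genes tested were -0.01 and 0.30 for high-risk against low-risk, and -0.01 and 0.29 for tumor against vehicle.

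Per kilobase of exon, mitochondrial messages covered a wide range. Over all samples mt-Co1, the catalytic subunit of complex IV, had a median of 9182 CPM per kilobase. It was followed by the complex I subunit mt-Nd1 with 3203, mt-Cytb of complex III with 2743, mt-Nd2 with 1326, mt-Nd5 with 1031, mt-Nd4 with 823 and mt-Nd6 with 583. The other 6 were far lower on the same per-kilobase scale: mt-Co3 had 130, mt-Atp8 93.9, mt-Co2 83.4, mt-Atp6 67.7, mt-Nd3 38.9 and mt-Nd4l 7.35. Of these 6, all but mt-Atp8 have a nearly complete annotated nuclear copy, and an unannotated copy of mt-Atp8 was not searched for. Counts were also assigned to the copies, with a median over libraries of 174 CPM for Gm28437 (mt-Co3), 97.8 for Gm28661 (mt-Co2) and 87.0 for Gm10925 (mt-Atp6). These 3 copies had 0 differing bases, so reads within them cannot be told apart from those of the mitochondrial gene.

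Among nuclear genes the highest levels per kilobase belonged to ATP synthase and complex IV. The catalytic core subunits Atp5a1 and Atp5b had 316 and 281 CPM per kilobase, and Cox8a, Cox6a1 and Cox6b1 of complex IV had 256, 249 and 246. The liver forms of paired complex IV genes stood far above the muscle, lung or testis forms: Cox4i1 had 165 CPM per kilobase and Cox4i2 0.101, and Cox7a2 had 112 against 2.42 for the muscle form Cox7a1. Cox8b had 0.148, Cox6b2 0.145 and Cox6a2 0.137. Ndufa4 had 127 and its paralog Ndufa4l2, known as a gene induced by low oxygen, had 1.11. The 3 genes for the c subunit of the ATP synthase ring, Atp5g3, Atp5g2 and Atp5g1, had 111, 31.8 and 26.9. Cox8c, Cox7b2 and a repeated entry for Atp5o were at or near 0. These genes, and Cox4i2, Cox8b, Cox6b2 and Cox6a2, did not pass the filter on low counts and were not tested.

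**Figure D2:**
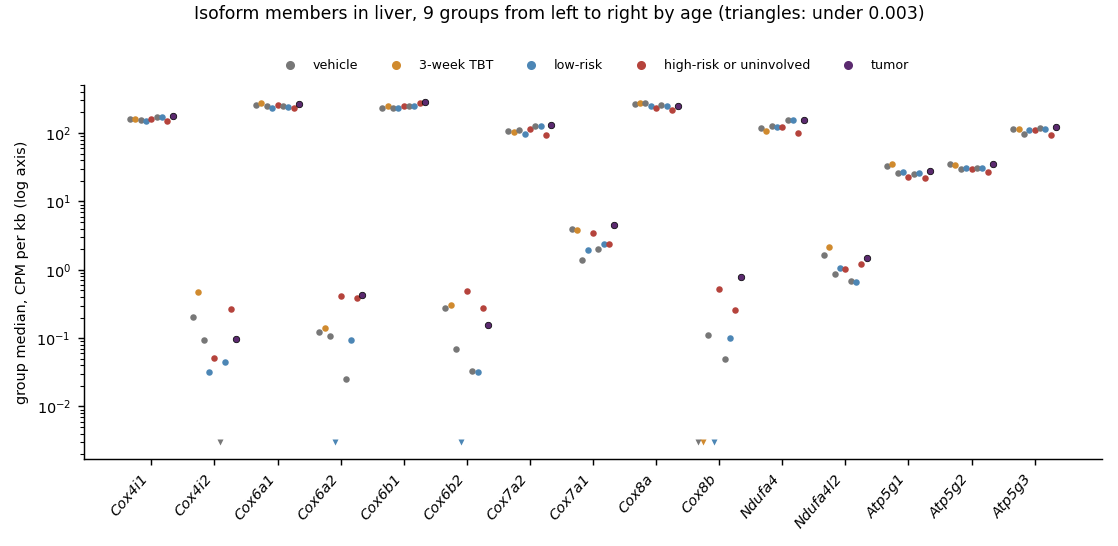
Group medians of isoform genes in CPM per kilobase of exon on a log axis, 9 groups from left to right by age, with triangles for medians under 0.003. The common liver forms such as Cox4i1 and Cox7a2 lie well above Cox4i2, Cox7a1 and Ndufa4l2 in each group.

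Summed over the 90 nuclear genes, these messages took close to 1% of counts in every group. The lowest, median and highest shares were 0.825, 0.930 and 1.08% in 3-week vehicles and 0.753, 0.931 and 1.11% in 3-week TBT livers. At 5 months they were 0.389, 0.871 and 0.967% in vehicles, 0.534, 0.855 and 1.25% in low-risk livers and 0.522, 0.892 and 0.988% in high-risk livers. At 10 months they were 0.864, 0.929 and 1.004% in vehicles, 0.884, 0.948 and 1.02% in low-risk livers, 0.809, 0.875 and 1.01% in uninvolved livers and 0.939, 1.05 and 1.12% in tumors. Each range overlapped that of the other groups of its age, and the shares themselves were not tested.

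The 13 mitochondrial genes together took 1.85, 2.49 and 6.32% of counts (lowest, median, highest) in 3-week vehicles and 2.34, 2.66 and 3.19% in 3-week TBT livers. At 5 months the shares were 1.18, 2.54 and 6.50% in vehicles, 1.58, 2.97 and 10.97% in low-risk livers and 0.593, 2.57 and 14.4% in high-risk livers. The highest sample of the 3-week vehicles and of each 5-month group was, or included, a library low in ribosomal protein genes (3S1, vehicle 9, low-risk 16 and high-risk 15), and the part of this in the shares was not tested. At 10 months the shares were 2.07, 2.33 and 2.59% in vehicles, 2.08, 2.14 and 2.17% in low-risk livers and 1.96, 2.29 and 2.496% in tumors. Uninvolved livers had 2.93, 3.86 and 4.43%, above every sample of the other 10-month groups except the vehicle library labelled as a tumor, which had 13.01%.

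**Figure D3:**
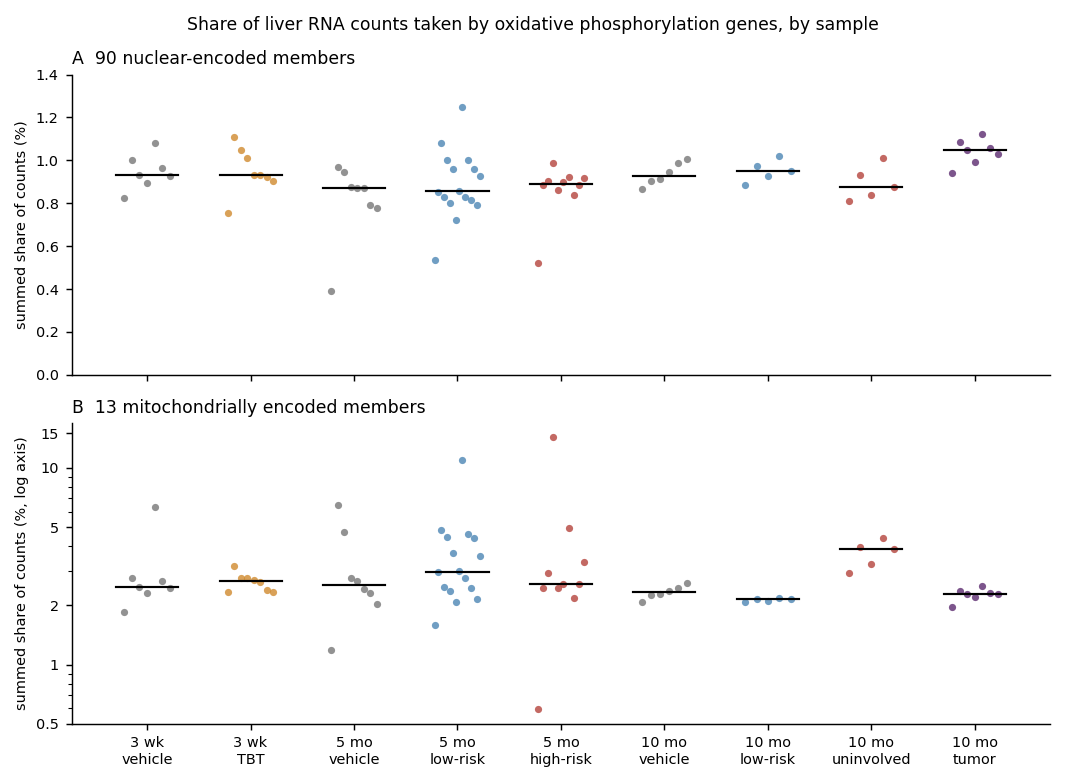
Summed share of counts (percent) of the 90 nuclear and of the 13 mitochondrial genes in every sample, by group; each point is 1 sample. Uninvolved livers lie between 2.93 and 4.43% for the mitochondrial genes, and the 10-month low-risk livers between 2.08 and 2.17%.

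The 2 libraries of 3-week vehicle mouse 3 differed widely in their mitochondrial share. Library 3S1 is among those low in ribosomal protein genes (0.794% of counts, against 1.18% in 3S16), and what the difference stems from was not tested. Library 3S1 (6.76 M counts) had 13.4% of its counts from the mitochondrial genes and 0.636% from the nuclear genes, and library 3S16 (11.49 M) had 2.18% and 0.936%. The ratio of 3S1 to 3S16 in CPM differed between genes: it was 21.3 for mt-Nd6, 13.5 for mt-Nd2, 12.4 for mt-Nd5, 7.79 for mt-Cytb, 6.84 for mt-Nd1 and 2.49 for mt-Co1, and 0.619 for mt-Co3. Of 77 nuclear genes with at least 5 CPM in both libraries, 65 were lower in 3S1, with a median ratio of 0.682.

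At 3 weeks, TBT-exposed and vehicle livers did not differ by the test in any of these genes. Of the 83 nuclear genes 0 were called (background: 0.0% of all genes tested), with log2 fold changes between -0.24 for the assembly factor Ndufaf2 and 0.55 for Cox7a1, and 0 had an unadjusted p under 0.05. Of the 13 mitochondrial genes 0 were called and 1 had an unadjusted p under 0.05: mt-Nd3, at -0.34 ± 0.11 (adjusted p = 0.999 by edgeR). mt-Nd3 had 15.6, 22.8 and 25.9 CPM (lowest, median, highest) in vehicles and 13.1, 15.8 and 19.6 in TBT livers, with overlap. The most negative value was that of mt-Nd6, at -0.77. mt-Nd6 ran from 219 to 2579 CPM in vehicles (median 343) and from 262 to 579 in TBT livers (median 371), and the groups overlapped. The vehicle maximum is mouse 3. The same comparison with DESeq2 also called 0 genes of either genome.

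At 5 months the question is whether the livers labelled high-risk differ from low-risk and vehicle livers of the same age. Under TMM, 52 of 83 nuclear genes were lower in high-risk than in low-risk livers and 0 were higher (background: 18.5% of all genes tested were lower and 38.9% were called in either direction). The median log2 fold change was -0.43, beside -0.01 over all genes tested. With total counts as the only scaling 3 were lower and 1 higher (Atp5s, an ATP synthase coupling factor). Over all genes tested 999 of 14773 were then lower and 6187 higher, so the share of lower genes was smaller among the nuclear genes. The nuclear median was -0.13, beside 0.30 over all genes. The 3 that were lower under both scalings were Ndufa6 and Ndufb3, accessory subunits of complex I, and its assembly factor Ndufaf6.

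Ndufa6 had 68.3, 106 and 144 CPM (lowest, median, highest) in low-risk livers and 55.5, 92.7 and 101 in high-risk livers. The ranges overlapped, with the high-risk maximum below the low-risk median. Its log2 fold change was -0.63 ± 0.11 (SE; adjusted p = 3.6e-05 by edgeR), and -0.33 under total counts. Ndufb3 had 16.5, 29.5 and 55.2 CPM in low-risk livers and 8.34, 22.1 and 29.2 in high-risk livers, again with a high-risk maximum below the low-risk median. The fitted log2 fold change was -0.84 ± 0.18 (adjusted p = 0.000266 by edgeR), and -0.53 under total counts. Ndufaf6 had 7.96, 10.9 and 16.4 CPM in low-risk and 6.19, 7.55 and 13.4 in high-risk livers. This gave a log2 fold change of -0.69 ± 0.13 (adjusted p = 0.000119 by edgeR), and -0.37 under total counts.

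The TMM calls were spread over all complexes. In complex I 22 of 31 accessory subunits, 4 of 7 core subunits and 4 of 8 assembly factors were lower in high-risk livers. So were 6 of 8 genes of complex III, 7 of 12 of complex IV and 9 of 17 of ATP synthase. Under total counts 2 accessory subunits and 1 assembly factor of complex I were lower, and 0 genes of the other classes. The complex I membrane subunits Ndufb9 and Ndufb8 had log2 fold changes of -0.74 and -0.65, Uqcr11 and Uqcrb of complex III -0.68 and -0.52, Cox6c of complex IV -0.58 and the ATP synthase stalk subunit Atp5h -0.53. Under total counts these did not pass the test. Within batch 1 (3 high-risk and 6 low-risk livers) 0 nuclear genes were called and the median was -0.49, and within batch 2 (7 and 10) 35 were lower and the median was -0.37. Shares over all genes tested within each batch are not given here.

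Against vehicles of the same age, 13 of 83 nuclear genes were lower in high-risk livers and 0 higher under TMM (background: 7.38% lower and 15.8% in either direction). Under total counts 0 were called (background: 320 of 14773 genes tested lower and 4627 higher). The median log2 fold change of the nuclear genes moved from -0.41 to -0.05. Uqcrq, a small subunit of complex III, had 63.9, 145 and 182 CPM in vehicles and 60.1, 114 and 138 in high-risk livers, and the groups overlapped over most of their range. The difference on the log2 scale was -0.78 ± 0.20 (adjusted p = 0.00686 by edgeR). The count depended on single libraries: it was 52 without vehicle library 9 and high-risk library 10, and 20 without library 10 alone. The shares over all genes tested in those fits are not given here, so the rise is not shown to be particular to these genes.

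With all libraries, 0 of 13 mitochondrial genes were called for high-risk against low-risk or against vehicle, under either scaling, by edgeR or by DESeq2, and 0 had an unadjusted p under 0.05 in the edgeR fits. Without the libraries low in ribosomal protein genes 2 were lower against low-risk livers (mt-Co1 at -0.45 and mt-Nd3 at -0.50) and 1 against vehicles (mt-Nd3 at -0.76). Within batch 2 alone mt-Co1 was lower against low-risk livers, at -0.55. Shares over all genes tested are not given for these subsets. The spread between livers was wide, as for mt-Nd6, which ran from 0.128 to 6380 CPM in high-risk livers and from 121 to 4331 in low-risk livers. Low-risk livers against vehicles gave 0 calls of 83 nuclear and 0 of 13 mitochondrial genes (background: 0.0%). There 1 nuclear and 0 mitochondrial genes had an unadjusted p under 0.05, and DESeq2 also called 0.

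At 10 months the comparison is between liver labelled uninvolved, from high-risk TBT mice, and livers of low-risk TBT mice. The nuclear genes were lower in uninvolved liver for 55 of 83 and higher for 0 under TMM (background: 24.7% lower, 27.7% higher, 52.4% called in either direction). With total counts as the only scaling 28 were lower and 9 higher (background: 1839 of 16338 genes tested lower and 6828 higher). The 28 were among the 55. The median log2 fold change was -0.34 under TMM (0.05 over all genes tested) and -0.11 under total counts (0.30 over all genes). The highest total count differences belonged to Ndufa4l2 at 0.79 and the complex I subunit Ndufb4 at 0.45.

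Among the ATP synthase genes Atp5e, the epsilon subunit of the central stalk (chromosome 2, 174461072 to 174464105, minus strand), had 84.2, 89.2, 90.4, 93.2 and 98.1 CPM in low-risk livers. In uninvolved livers it had 41.2, 43.2, 41.4, 40.7 and 58.1 CPM, so the groups did not overlap. The test gave a log2 fold change of -1.25 ± 0.12 (adjusted p = 5.38e-07 by edgeR), and -1.02 under total counts. Atp5mpl, a small membrane subunit, had 49.8 to 59.5 CPM in low-risk and 30.2 to 37.6 in uninvolved livers, a log2 fold change of -0.92 under TMM and -0.68 under total counts. Of 17 ATP synthase genes tested 12 were lower and 0 higher under TMM, and 5 lower and 2 higher under total counts.

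In complex I the accessory subunit Ndufs4 (chromosome 13, 114287795 to 114388258, minus strand), whose loss causes complex I deficiency, had 51.8, 58.9, 53.4, 53.4 and 57.0 CPM in low-risk livers. In uninvolved livers it had 45.0, 27.7, 39.3, 38.7 and 33.0 CPM, each below every low-risk liver. Its log2 fold change was -0.83 ± 0.09 (adjusted p = 2.04e-06 by edgeR), and -0.58 under total counts. Ndufa4, now regarded as a complex IV subunit although named for complex I, had 189, 214, 213, 213 and 235 CPM in low-risk livers and 140, 111, 143, 126 and 143 in uninvolved livers. The fitted log2 fold change was -0.92 ± 0.09 under TMM and -0.68 under total counts. The core subunit Ndufs3 had 78.3 to 82.4 CPM in low-risk and 58.2 to 69.3 in uninvolved livers, and the assembly factor Ndufaf8 9.40 to 10.3 and 6.06 to 8.27. Under TMM 18 of 31 accessory subunits, 5 of 7 core subunits and 5 of 8 assembly factors were lower and 0 higher. Total counts gave 11 lower and 6 higher accessory subunits, 2 lower core subunits and 4 lower assembly factors.

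In complex III all 8 genes were lower under TMM and 3 under total counts. Uqcrfs1, the Rieske iron-sulfur subunit, had 146, 163, 150, 157 and 162 CPM in low-risk livers and 104, 117, 101, 106 and 127 in uninvolved livers, with no overlap. This gave a log2 fold change of -0.72 ± 0.10 (adjusted p = 1.54e-05 by edgeR), and -0.49 under total counts. In complex IV 7 of 12 were lower under TMM, and 3 were lower and 1 higher under total counts. Cox7a2 had 108, 121, 110, 118 and 134 CPM in low-risk livers and 87.1, 67.7, 87.4, 80.6 and 97.6 in uninvolved livers. The difference on the log2 scale was -0.73 ± 0.10 (adjusted p = 2.32e-05 by edgeR), and -0.49 under total counts. The abundant Cox6a1 and Cox6b1 had log2 fold changes of -0.13 and -0.08 and did not pass the test under either scaling. Atp5l, whose promoter is printed above, had -0.58 under TMM and -0.34 under total counts and passed the test under both.

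**Figure D4:**
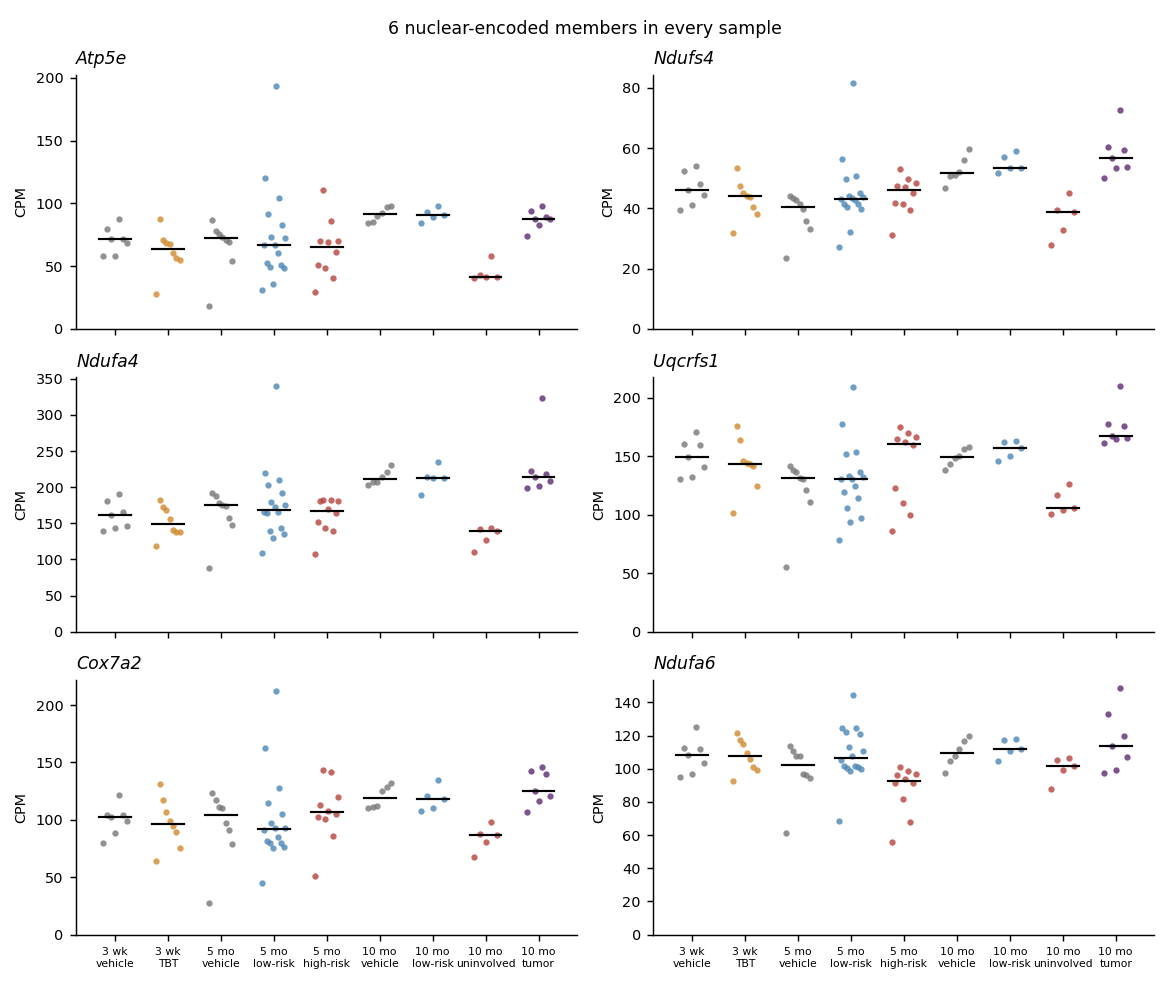
CPM of Atp5e, Ndufs4, Ndufa4, Uqcrfs1, Cox7a2 and Ndufa6 in every sample, by group; each point is 1 sample. Uninvolved livers lie below the 10-month low-risk livers for Atp5e (40.7 to 58.1 against 84.2 to 98.1 CPM), and tumors lie at 73.7 to 98.1.

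The mitochondrial genes of uninvolved liver moved in both directions. For uninvolved against low-risk livers the background was 27.7% of all genes tested higher and 24.7% lower under TMM. Under total counts it was 6828 of 16338 genes higher and 1839 lower. Against low-risk livers 6 of 13 mitochondrial genes were higher and 4 lower under TMM, and 8 were higher and 2 lower under total counts. The 6 were mt-Nd1, mt-Nd2, mt-Nd4, mt-Nd5 and mt-Nd6 of complex I and mt-Cytb of complex III, higher under both scalings. The 2 lower under both were mt-Co2 and mt-Co3 of complex IV, each a gene with a nearly complete nuclear copy.

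mt-Nd6 had 210, 182, 170, 204 and 193 CPM in low-risk livers and 613, 498, 636, 857 and 423 in uninvolved livers, with no overlap. The test gave a log2 fold change of 1.41 ± 0.13 (adjusted p = 5.79e-07 by edgeR), and 1.66 under total counts. mt-Cytb had 2365, 2284, 2133, 2452 and 2418 CPM in low-risk and 5689, 4153, 6342, 7663 and 4120 in uninvolved livers, with a log2 fold change of 1.01 ± 0.14 under TMM. mt-Nd2, mt-Nd5, mt-Nd4 and mt-Nd1 had log2 fold changes of 1.13, 1.10, 0.97 and 0.72. mt-Co1, the most abundant of all, had 12669 to 13584 CPM in low-risk and 15657 to 19991 in uninvolved livers. Its log2 fold change was 0.22 under TMM (adjusted p = 0.0989 by edgeR) and 0.47 under total counts, where it passed the test.

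mt-Co2 had 34.5, 42.8, 40.6, 45.6 and 51.1 CPM in low-risk livers and 22.3, 16.7, 23.7, 23.1 and 21.8 in uninvolved livers. The fitted log2 fold change was -1.24 ± 0.11 (adjusted p = 4.48e-07 by edgeR), and -0.99 under total counts. mt-Co3 had 87.1, 84.8, 84.6, 103 and 106 CPM in low-risk livers and 88.6, 10.5, 15.1, 19.6 and 11.2 in uninvolved livers. The first uninvolved liver lay within the low-risk range and the others lay far below it. This gave a log2 fold change of -2.01 ± 0.44 (adjusted p = 0.00162 by edgeR), and -2.90 without uninvolved liver 1. mt-Atp6 and mt-Atp8 were lower under TMM alone (-0.57 and -0.27), and mt-Nd3 (-0.17) and mt-Nd4l (0.50) did not pass the test under TMM. Across the 13 genes, these log2 fold changes had a Pearson r of 0.74 (Spearman rho 0.78) with the log2 ratios of library 3S1 to 3S16 of 3-week vehicle mouse 3, and the r was 0.004 across 77 nuclear genes. For high-risk against low-risk livers of 5 months the r was 0.22 (rho 0.17) across the 13 genes and 0.197 across the 77. The points are genes of the same libraries, not replicates, and what the likeness stems from was not tested.

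Against low-risk livers Gm28437, the copy of mt-Co3, had a log2 fold change of -1.06 under TMM and -0.81 under total counts and passed the test under both. Gm10222 and Gm28439, the copies of mt-Nd4l and mt-Nd4, had 3.41 and 1.41 under TMM and also passed under both. Gm28438, the copy of mt-Nd3, had -0.54. Gm29216 and Gm13340, pseudogenes that share part of their windows with mt-Co1, had -0.57 and -0.48, where mt-Co1 had 0.22. These 3 pseudogenes passed under TMM alone. Gm28661, the copy of mt-Co2, had -0.26 (adjusted p = 0.132 by edgeR) and Gm10925, that of mt-Atp6, 0.17 (adjusted p = 0.470 by edgeR). Of the mitochondrial ribosomal RNAs, mt-Rnr1 had a log2 fold change of 1.05 (adjusted p = 3.14e-06 by edgeR) and mt-Rnr2 0.20 (adjusted p = 0.152 by edgeR), and both were higher under total counts (1.30 and 0.45).

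**Figure D5:**
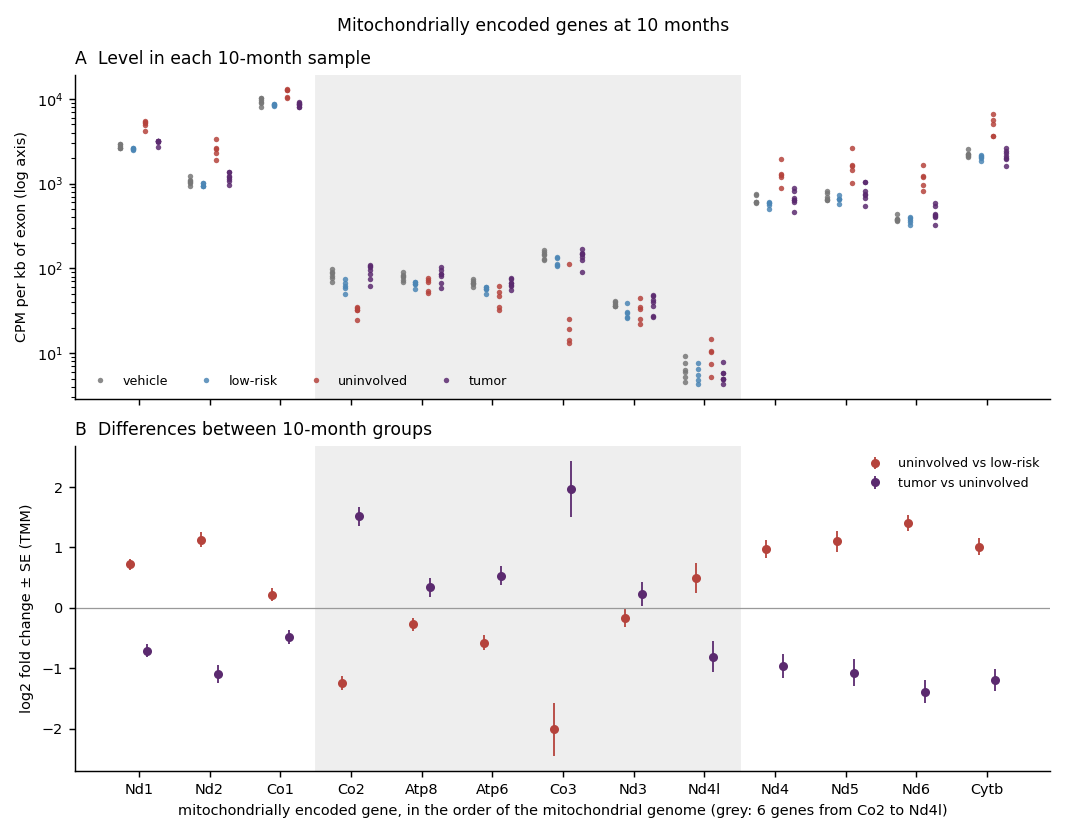
The 13 mitochondrial genes in their order along mitochondrial DNA: above, CPM per kilobase (log axis) in each 10-month sample; below, TMM-scaled log2 fold changes ± SE, with the 6 genes from mt-Co2 to mt-Nd4l in grey. In uninvolved against low-risk livers mt-Nd6 lies highest (1.41) and mt-Co3 lowest (-2.01), and in tumor against uninvolved liver mt-Co3 lies highest (1.97) and mt-Nd6 lowest (-1.39).

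Against 10-month vehicles, which share the uninvolved samples with the comparison above, 58 of 83 nuclear genes were lower and 1 was higher under TMM (background: 26.5% lower, 31.2% higher, 57.7% in either direction). Under total counts 27 were lower and 13 higher (background: 1728 of 16338 genes tested lower and 8176 higher). Atp5e had 84.6, 91.4 and 98.3 CPM (lowest, median, highest) in vehicles, and its log2 fold change was -1.32 ± 0.11 (adjusted p = 1.23e-07 by edgeR). The gene that was higher was Ndufa4l2, with 0.430, 0.747 and 1.09 CPM in vehicles and 1.097 to 1.91 in uninvolved livers, a log2 fold change of 0.64 ± 0.27 (adjusted p = 0.0475 by edgeR). Cox7b of complex IV had -0.87 and Ndufaf6 -0.74. Of the mitochondrial genes 6 were higher and 5 lower under TMM, and 7 and 4 under total counts. mt-Nd6 had 187, 197 and 227 CPM in vehicles and a log2 fold change of 1.27, and mt-Co2 had 47.4, 57.9 and 67.5 CPM and -1.74.

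Low-risk livers and vehicles of 10 months gave 0 calls of 83 nuclear and 0 of 13 mitochondrial genes (background: 0.0%). In that comparison 0 nuclear and 4 mitochondrial genes had an unadjusted p under 0.05, and the 13 mitochondrial log2 fold changes lay between -0.50 and -0.13. DESeq2 also called 0 of either genome.

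Tumors were compared with uninvolved liver, and 6 of the 7 tumors carry mouse numbers of uninvolved livers. The main fit did not pair them, and a fit with the number as replicate block is given further below. Under TMM 19 of 83 nuclear genes were higher in tumors and 0 lower (background: 7.55% higher, 10.5% lower, 18.1% in either direction). Under total counts 23 were higher and 1 lower (background: 1151 of 16362 genes tested higher and 1538 lower), and 18 were higher under both. The median log2 fold change was 0.18, beside -0.01 over all genes tested. Of the classes, 4 of 17 ATP synthase genes, 8 of 31 accessory and 2 of 7 core subunits of complex I, 1 of 8 assembly factors, 2 of 8 complex III and 2 of 12 complex IV genes were higher under TMM. Total counts gave 6 higher for ATP synthase, 10 higher and 1 lower for the accessory subunits and the same counts as TMM for the others. The count of nuclear genes called was 12 without uninvolved liver 1, 12 without uninvolved liver 5 and 30 without uninvolved liver 12. Shares over all genes tested are not given for those fits.

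Atp5e had 73.7, 87.9 and 98.1 CPM (lowest, median, highest) in tumors, above every uninvolved liver, with a log2 fold change of 0.93 ± 0.13 (adjusted p = 0.00105 by edgeR). Ndufs4 had 49.9, 56.8 and 72.5 CPM in tumors, also above every uninvolved liver, with a log2 fold change of 0.65 ± 0.11 (adjusted p = 0.00347 by edgeR). Uqcrfs1 had 162, 167 and 210 CPM in tumors and a log2 fold change of 0.63, Ndufa4 199, 214 and 323 CPM and 0.75, and Cox7a2 107, 125 and 146 CPM and 0.58. For each of these genes the tumor and uninvolved ranges did not overlap. Atp5mpl and the complex I subunit Ndufa2 had log2 fold changes of 0.77 and 0.71.

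Of the mitochondrial genes 3 were higher in tumors and 8 lower, the same counts under both scalings. The background was 7.55% of all genes tested higher and 10.5% lower under TMM. Under total counts it was 1151 of 16362 genes higher and 1538 lower. mt-Co3 had 70.1, 115 and 132 CPM in tumors with a log2 fold change of 1.97 ± 0.47 (adjusted p = 0.0153 by edgeR), which was 2.90 without uninvolved liver 1. mt-Co2 had 42.1, 65.2 and 75.7 CPM with 1.51, and mt-Atp6 had 37.4, 45.1 and 52.1 CPM with 0.53. The 8 lower were mt-Nd6 (-1.39), mt-Cytb (-1.20), mt-Nd2 (-1.10), mt-Nd5 (-1.07), mt-Nd4 (-0.96), mt-Nd4l (-0.81), mt-Nd1 (-0.71) and mt-Co1 (-0.48). mt-Nd6 had 167, 218 and 307 CPM in tumors, below the 423 to 857 of uninvolved livers. This comparison and those of uninvolved with low-risk or vehicle livers use the same uninvolved samples, so their opposite signs are not separate observations.

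Against vehicles the direction for tumors depended on the scaling. Under TMM 41 of 83 nuclear genes were lower and 3 higher (background: 21% lower, 24.8% higher, 45.9% in either direction). Under total counts 0 were lower and 22 higher (background: 874 of 15293 genes tested lower and 7413 higher). The nuclear median lay below that of all genes tested under both scalings. It was -0.20 beside -0.01 under TMM, and 0.10 beside 0.29 under total counts. The 3 that were higher under both were Cox7a1 at 0.86, Ndufa4l2 at 0.76 and Atp5s at 0.39. Cox7a1 had 0.430, 1.09 and 1.31 CPM in vehicles and 0.775, 2.40 and 3.69 in tumors, with overlap. Atp5e was at -0.35 under TMM and -0.06 under total counts. The mitochondrial genes gave 4 lower under TMM and 1 higher (mt-Nd1, at 0.18) under total counts.

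Between vehicles of different ages few of these genes were called. From 3 weeks to 5 months (batch 1 vehicles) 1 of 83 nuclear genes was higher and 4 lower (background: 12.3% lower and 24.2% in either direction). The higher gene was Atp5s, with a log2 fold change of 0.74 ± 0.13 (adjusted p = 0.000302 by edgeR). The lower genes were Cox7a1 at -0.96, Ndufc1 and Uqcrb at -0.30 and Ndufc2 at -0.26. Total counts gave 1 higher and 14 lower (background: 845 of 14962 genes tested higher and 2920 lower). Leaving out vehicle library 9, which has 2.83 M counts, turned the split to 10 higher and 4 lower. The share over all genes tested in that fit is not given here. From 5 to 10 months 8 were higher and 0 lower (background: 6.68% higher, 7.41% lower, 14.1% in either direction), among them Ndufaf6 at 0.52, Ndufb2 at 0.46 and Ndufc1 at 0.42. For that step total counts gave 14 higher (background: 1255 of 14962 genes tested higher and 762 lower). The mitochondrial genes gave 0 calls by edgeR and by DESeq2 for both steps under TMM or size factor scaling, with 1 and 3 at an unadjusted p under 0.05. For 5 months against 3 weeks total counts gave 2 lower (mt-Nd3 and mt-Atp6). Leaving out vehicle library 9 gave 2 lower, mt-Nd3 at -0.64 and mt-Nd6, which turned to -1.33 (adjusted p = 0.04 by edgeR), and leaving out the libraries low in ribosomal protein genes gave 1 lower, mt-Nd3 at -0.62.

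Whether the risk difference at 10 months (uninvolved against low-risk) differed from that at 5 months (high-risk against low-risk) was tested directly with an interaction term. Of 83 nuclear genes 0 passed (background: 0.448% of all genes tested), with a smallest adjusted p of 0.275 for Ndufb4 by edgeR, and 11 had an unadjusted p under 0.05. Of 13 mitochondrial genes 0 passed, with a smallest adjusted p of 0.405 by edgeR, and 1 had an unadjusted p under 0.05. DESeq2 also called 0 of either genome. The sets of genes called at each age are therefore not shown to differ.

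Other mitochondrial and ribosomal genes were counted in lists chosen for their known roles, here for uninvolved against low-risk livers. Of 14 genes of complex II and cytochrome c 10 were lower and 0 higher under TMM, and 4 and 0 under total counts, led by the complex II assembly factor Sdhaf4 at -1.43 (-1.19 under total counts). The mitochondrial ribosomal proteins gave 38 lower and 4 higher of 77 under TMM, and 18 and 12 under total counts. Mitochondrial transcription and RNA handling gave 19 lower and 0 higher of 32, and 8 and 2 under total counts, among them Lrpprc, which stabilises mitochondrial messages, at -0.60 and the mitochondrial elongation factor Tefm at -0.69. Other complex I assembly factors gave 9 lower and 0 higher of 13, and 7 and 0 under total counts. Assembly factors of complexes III to V gave 18 lower and 3 higher of 34, and 7 and 5 under total counts.

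The balance turned with the scaling for 3 of the lists. The citrate cycle gave 9 lower and 1 higher of 19 under TMM but 3 and 5 under total counts, and the regulators of mitochondrial biogenesis 8 lower and 3 higher of 16 but 5 and 6. Among these regulators the fatty acid oxidation regulator Ppara had -0.94 and the deacetylase Sirt3 -0.61, and both were lower under total counts too (-0.70 and -0.36). The list of mitophagy and hypoxia genes gave 4 lower and 3 higher of 11, and 2 and 5 under total counts, the third list whose balance turned. Cytosolic ribosomal protein genes, which are not mitochondrial, gave 51 lower and 4 higher of 80, and 36 and 11 under total counts.

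At 5 months the lists gave, for high-risk against low-risk livers, fewer lower calls under total counts than under TMM in each case. Complex II and cytochrome c gave 8 lower and 0 higher of 14 under TMM and 0 calls under total counts, and cytosolic ribosomal proteins 31 lower and 0 higher of 80 and 0 calls. The mitochondrial ribosome gave 31 lower and 0 higher of 77, and 1 and 5 under total counts. Mitochondrial transcription and RNA handling gave 14 lower and 0 higher of 31, and 1 and 4. Other complex I assembly factors gave 8 lower and 0 higher of 13, and 2 and 2. Assembly factors of complexes III to V gave 11 lower and 2 higher of 34, and 2 and 3, and the higher ones include Atpif1, the inhibitor of ATP synthase, at 0.54. The citrate cycle gave 5 lower and 2 higher of 19, and 1 and 9, with the mitochondrial isocitrate dehydrogenase Idh2 at 0.79. Regulators of mitochondrial biogenesis gave 7 lower and 3 higher of 16, and 3 and 6, with the growth regulator Myc at 2.02, Ppara at -0.93 and Sirt3 at -0.70. Mitophagy and hypoxia genes gave 4 lower and 3 higher of 11, and 2 and 4. Among them Pdk1, the kinase that holds back pyruvate dehydrogenase, had -1.83 (-1.56 under total counts), and -2.05 (-1.79) in uninvolved against low-risk livers. The background shares given above for each comparison also apply to these lists.

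Markers of some cell types also differed between the groups. The background for uninvolved against low-risk livers was 24.7% of all genes tested lower and 27.7% higher under TMM. Under total counts 1839 of 16338 genes tested were lower and 6828 higher. In uninvolved against low-risk livers 4 of 7 hepatocyte markers were lower and 0 higher under TMM (median -0.39), and 2 lower and 2 higher under total counts. Under both scalings 5 of 5 cholangiocyte markers were higher (median 2.04 under TMM). Stellate and fibroblast markers gave 5 higher and 1 lower of 7 (6 and 0 under total counts), macrophage markers 2 higher and 4 lower of 7 (2 and 2), and T and NK cell markers 4 higher and 0 lower of 5 (5 and 0). Summed hepatocyte markers ran from 94545 to 113750 CPM in uninvolved and from 114520 to 120720 CPM in low-risk livers, and summed cholangiocyte markers from 118 to 264 and from 35.9 to 53.6 CPM. Other sums overlapped between uninvolved and low-risk livers. They were 259 to 480 and 369 to 491 CPM for macrophage markers and 287 to 391 and 271 to 342 for endothelial markers. Erythroid markers had 119.5 to 302.9 and 141.5 to 299.7 CPM, and B and plasma cell markers 14.2 to 82.4 and 17.6 to 44.0.

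The background for high-risk against low-risk livers of 5 months was 18.5% of all genes tested lower and 38.9% in either direction under TMM. Under total counts 999 of 14773 genes tested were lower and 6187 higher. In 5-month livers (high-risk against low-risk) 4 of 7 hepatocyte markers were lower (median -0.66), and 3 under total counts, with 0 higher under either. Their sum did not follow: it was 79227, 122210 and 165050 CPM (lowest, median, highest) in low-risk and 87685, 123180 and 175450 in high-risk livers. Under both scalings 4 of 5 cholangiocyte markers and 6 of 7 stellate and fibroblast markers were higher, and 1 of the latter was lower under TMM. In bulk liver, fewer hepatocytes and less RNA per hepatocyte cannot be told apart, and the part of cell composition in the results was not tested. Uninvolved libraries also had a higher share of mitochondrial transfer RNA counts (0.0169 to 0.0258%, against 0.0058 to 0.0088% in the other assigned 10-month libraries), whose part was not tested either.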

How the data were processed

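Total RNA libraries (TruSeq Stranded Total RNA, per the labels' protocols) were deposited as 1 table of whole-number counts per gene. Per the submitters' processing notes the authors used Trim Galore, HISAT2, featureCounts and mm10 to make these counts, and the name of the deposited table also names ComBat-seq. Versions, the strand setting, the handling of reads that match several places and the batch settings are not given in the sources used here, and counts adjusted by ComBat-seq are model output rather than raw reads. All 55536 gene identifiers matched GENCODE M21.

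Genes were tested with edgeR 4.0.16 in R 4.3.3 (quasi-likelihood test, TMM, filterByExpr, robust) with Benjamini-Hochberg adjustment over all genes tested. The 5-month groups shared 1 fit with batch as a covariate. Whether ComBat-seq had already adjusted the counts for this batch label is not given. What such an adjustment would do to the 5-month p-values was not tested. The 10-month non-tumor groups shared 1 fit, tumors entered separate fits against uninvolved and vehicle livers, and vehicles of batch 1 were compared over age. DESeq2 1.42.0, RLE size factors, no low-count filter, total counts, subsets of libraries and each replicate left out were alternatives. The total count scaling, the removal of libraries low in ribosomal protein genes, the removal of high-risk library 10 and the thinning of uninvolved libraries were chosen after seeing the data.

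Named genes were the 13 mitochondrial ones, the 5 most positive and 5 most negative called genes of at least 5 CPM per comparison, the gene of smallest adjusted p in each class and the isoform genes, and others are named after their values were seen. The members and lists were chosen with earlier results of these data known. The scripts were tested on simulated data. CPM and shares are computed from each library's total.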

Additional observations from a re-analysis of the deposited data

Results flagged for a closer look

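In groups of 4 to 10 samples, the highest or lowest sample was compared with its nearest neighbour by Dixon's gap ratio, over 136 combinations of group and quantity. A gap beyond the 95% critical value occurred in 26, and chance alone gives about 1 in 20. The combinations are not independent, since several come from the same library.

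In 3-week vehicles mouse 3 lay apart for the mitochondrial share (6.32% of counts), mt-Co2 (199 CPM), mt-Cytb (9588 CPM) and mt-Nd6 (2579 CPM), and the highest Atp5s value was 4.05 CPM. In 3-week TBT livers the highest mt-Nd6 value was 579 CPM. In 5-month vehicles the lowest sample lay apart for the nuclear share (0.389% of counts), Ndufa4 (87.9 CPM), Ndufa6 (61.1 CPM), Uqcrfs1 (55.4 CPM) and Cox7a2 (27.9 CPM), and the highest for Cox7a1 (2.83 CPM) and mt-Nd6 (3215 CPM).

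In 5-month high-risk livers the lowest nuclear share was 0.522% and the highest mitochondrial share 14.4%. The highest values of Cox7a1 (5.87 CPM), mt-Co1 (34253 CPM), mt-Co3 (253 CPM), mt-Cytb (19992 CPM) and mt-Nd6 (6380 CPM) lay apart as well. At 10 months the highest vehicle value of mt-Nd6 was 227 CPM. Among uninvolved livers Atp5e (58.1 CPM, highest), mt-Co2 (16.7 CPM, lowest) and mt-Co3 (88.6 CPM, highest) lay apart, and among tumors Ndufa4 (323 CPM) and Uqcrfs1 (210 CPM) did. The 10-month vehicle library labelled as a tumor, which is in no comparison, had 13.01% of counts from mitochondrial genes, where the highest other vehicle had 2.59%.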

How the results depend on the processing

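Counts are of nuclear genes called unless mitochondrial (mt) is named, and causes of the changes were not tested. Except for total counts, shares over all genes tested are not given for these settings. A change in a count is therefore not shown to be particular to these genes. Total counts as the only scaling gave 4 for high-risk against low-risk, 0 for high-risk against vehicle, 22 nuclear and 1 mt for tumor against vehicle, 15 nuclear and 2 mt for vehicles of 5 months against 3 weeks and 14 for 10 against 5 months. There tumor against vehicle turned positive for Atp5g1 (0.0863), Atp5g2 (0.235), Atp5g3 (0.0292), Cox4i1 (0.0353), Cox7a2 (0.10), Cox7b (0.0528) and mt-Nd1 (0.18). High-risk against low-risk gave 0 within batch 1, 1 mt within batch 2 and 2 mt without libraries low in ribosomal protein genes. High-risk against vehicle gave 2 with no filter, 52 without libraries of under 5 M counts or over 35000 genes, 23 nuclear and 1 mt without libraries low in ribosomal protein genes, 0 within batch 1, 4 in a fit of the 2 groups, 20 without high-risk library 10 and 0 with the title number as replicate block. Vehicles of 5 months against 3 weeks gave 1 with no filter, 3 with mitochondrial rows left out of the library size, 3 with protein-coding genes only, 14 nuclear and 2 mt without libraries of under 5 M counts or over 35000 genes (mt-Nd6 turned to -1.33), 13 nuclear and 1 mt without libraries low in ribosomal protein genes and 1 with the replicate block. Vehicles of 10 against 5 months gave 2 with no filter, 0 with the replicate block, and 2 when the 10-month library labelled vehicle and tumor joined the vehicles.

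With that library among the vehicles the calls were 35 nuclear and 2 mt for uninvolved against low-risk, 31 nuclear and 5 mt for uninvolved against vehicle and 10 for tumor against vehicle. Against vehicle, mt-Cytb (-0.0148), mt-Nd1 (-0.30), mt-Nd2 (-0.68), mt-Nd4 (-0.76), mt-Nd5 (-0.72) and mt-Nd6 (-0.88) then turned negative. Tumor against uninvolved gave 40 with all 10-month groups in 1 fit and 12 to 30 with 1 replicate left out. With the shared title number as replicate block over 6 pairs it gave 20 nuclear and 10 mt. Deviations of same-numbered samples had correlations of -0.274 to 0.648. Such correlations cannot show whether same-numbered samples come from the same mouse, and the main fit does not pair them. The block gave 54 for uninvolved against vehicle and 37 for tumor against vehicle. Outside tumor against uninvolved, the title number joins samples of different exposure or age, so those block counts do not test a pairing. Uninvolved livers thinned to the depth of the other 10-month libraries gave 52 nuclear and 9 mt against low-risk livers. RLE size factors and DESeq2 kept every count within 1.5 times of the reported one. The shallowest library is 5-month vehicle 9, with 2.83 M counts.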

Other observations

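High-risk library 10 of 5 months (7.79 M counts, 39669 genes detected) had a mitochondrial profile unlike that of the other high-risk libraries. It had 0.257 CPM of mt-Nd2, 0.771 of mt-Nd5, 0.128 of mt-Nd6 and 5.01 of mt-Nd4, with 130 of mt-Nd1 and 115 of mt-Cytb. In the same library mt-Co1 had 5581 CPM, mt-Co3 52.0 and mt-Nd3 22.6. High-risk library 15 lay at the other end, with 19729 CPM of mt-Nd2, 28861 of mt-Nd5 and 6380 of mt-Nd6, and 5.48 of mt-Co3.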
